A study of Homo sapiens with 6 samples.

Results

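The YAP dependence of the glucose deprivation response was followed in the established human colorectal cancer line HCT116 as the difference between the transcript changes of YAP knockdown cells and those of NC cells. For each gene the log2 change from control medium to 6 h without glucose was taken within each cell line, and the change in NC was subtracted from that in shYAP1 and from that in shYAP3. A gene entered if its deposited value was at least 1 in at least 2 of the 6 libraries, as it was for 12263 of the 14987 listed genes. No listed gene stood at 0 for NC in control medium, whereas each other library had 535 (shYAP1 control) to 942 (shYAP3 deprived) such genes. The list thus seems restricted to what was detected there, so transcripts detected only after deprivation or only in shYAP cells would escape every count. The groups are NC cells, labelled wild type, with 1 library in control medium and 1 after deprivation for 6 h, and cells labelled YAP knockdown, with the constructs shYAP1 and shYAP3 giving 1 library each in control medium and 1 each after the same deprivation. All 6 libraries are HCT116. The labels do not say what NC stands for, whether a construct was kept as a pool or as 1 clone, what the control medium held, or whether any library is a separate culture, so the p-values reflect no more than how far shYAP1 and shYAP3 lay apart, which may be technical. Where 3 values are listed without names, they are those of NC, shYAP1 and shYAP3, in this order, on the deposited scale or, for changes, on the log2(value + 1) scale. With a single library per medium, NC is taken to have the spread of the shYAP cells, and the shYAP1 and shYAP3 comparisons share the same NC libraries.

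YAP is a transcriptional coactivator that does not bind DNA itself. The kinases LATS1 and LATS2 of the Hippo pathway phosphorylate it and keep it out of the nucleus, and when it is free of this restraint it enters the nucleus and acts on genes through the TEAD DNA-binding factors. Its best known targets encode secreted matricellular proteins such as CTGF (now CCN2) and CYR61 (now CCN1), and several others, AMOTL2, LATS2 and PTPN14 among them, encode proteins that restrain YAP in turn. A lack of glucose lowers cellular energy and protein glycosylation, and is known to engage AMPK, which can phosphorylate YAP, and the unfolded protein and integrated stress responses.

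The libraries held between 16912634 and 22161075 reads in listed genes, and 3 reads, the most that a count of 0 allows, stood for 0.122 to 0.208 on the deposited scale, a limit that covers counting error only. YAP1 (ENSG00000137693) stood at 188, 35.7 and 38.2 in the control libraries and at 154, 20.3 and 18.2 in the deprived ones, below both NC libraries in all 4 shYAP libraries. Of the 13 colon epithelial markers 8 were listed, and together they held 0.392% to 0.614% of the reads in each library, against at most 0.00149% for 4 listed fibroblast, 0.00271% for 6 listed leukocyte and 0.00075% for 3 listed endothelial markers. The changes also varied with transcript length. Among the shortest 10% of transcripts the change exceeded that of NC by a median log2 of 0.19 in shYAP1 and 0.52 in shYAP3 cells, and among the longest 10% it was lower by medians of −0.14 and −0.36. The spread of log2 changes over all genes was 0.51 for NC, 0.50 for shYAP1 and 0.73 for shYAP3 (SD across genes).

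Among the genes with the largest responses, the change lay within 1.5-fold of NC in both constructs for 181 of 328 induced and 197 of 302 repressed genes. Genes were called induced or repressed when the mean log2 change over NC, shYAP1 and shYAP3 was at least 1 or at most −1. By this rule 328 genes (2.67%) were induced and 302 (2.46%) repressed. It gives the 3 lines equal weight, but shYAP3 changes spread the most (SD 0.73), so it leans toward genes with large changes there. Of the induced genes 181 had a change within 1.5-fold of NC in both constructs (55.2%), 12 had a change at least 1.5-fold weaker in both, 6 had a change at least 1.5-fold stronger in both, and 129 differed in 1 construct only or in opposite directions. Of the repressed genes 197 (65.2%) were within 1.5-fold in both, 2 were weaker, 4 were stronger and 99 differed otherwise. Over all tested genes 73.2% were within 1.5-fold of NC in both constructs, 1.15% lay below NC and 0.881% lay above NC by 1.5-fold in both. Below NC in both constructs were thus 3.66% of induced genes and above it 1.83%, both more than over all genes. Of the 10 induced YAP and TEAD targets 6 lay below, and without the targets 6 of 318 induced genes lay below and 6 above. The count of 6 stronger induced genes was 13 with a pseudocount of 0.1. With genes chosen by the NC change instead, 30 induced genes were weaker and 2 stronger in both constructs. Of the repressed genes chosen so, 13 were weaker and 1 was stronger in both.

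By limma on log2(value + 1) no gene passed the threshold for a difference of response between shYAP and NC cells, 0 of 12263 (0%) at an adjusted p of 0.05. At an unadjusted p under 0.05 there were 111 (0.905%), 73 lower and 38 higher in shYAP cells. Without any difference a share near 0.05 of the p-values would fall under 0.05. The 0.905% is far below it. Genes of the same 6 libraries are not independent, so this share does not settle whether the test was overly cautious. Nor do 0 calls show that no response differed. The quasi-likelihood test of edgeR on the recovered reads gave 0 adjusted calls and 119 at an unadjusted p under 0.05, and DESeq2 gave 1, RP11-542C16.2, with 84 at an unadjusted p under 0.05. The constructs come from the same shYAP1 or shYAP3 cells in both media, and with the construct as a block limma called 4 genes (0.0326%). These were CTGF, lower (limma adjusted p = 1.4e-06), and RP11-542C16.2 (2.1e-06), GCOM1 (0.024) and AL353354.2 (0.049), higher. That fit has 1 residual degree of freedom and took a single spread for all genes of the same level.

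**Figure D1:**
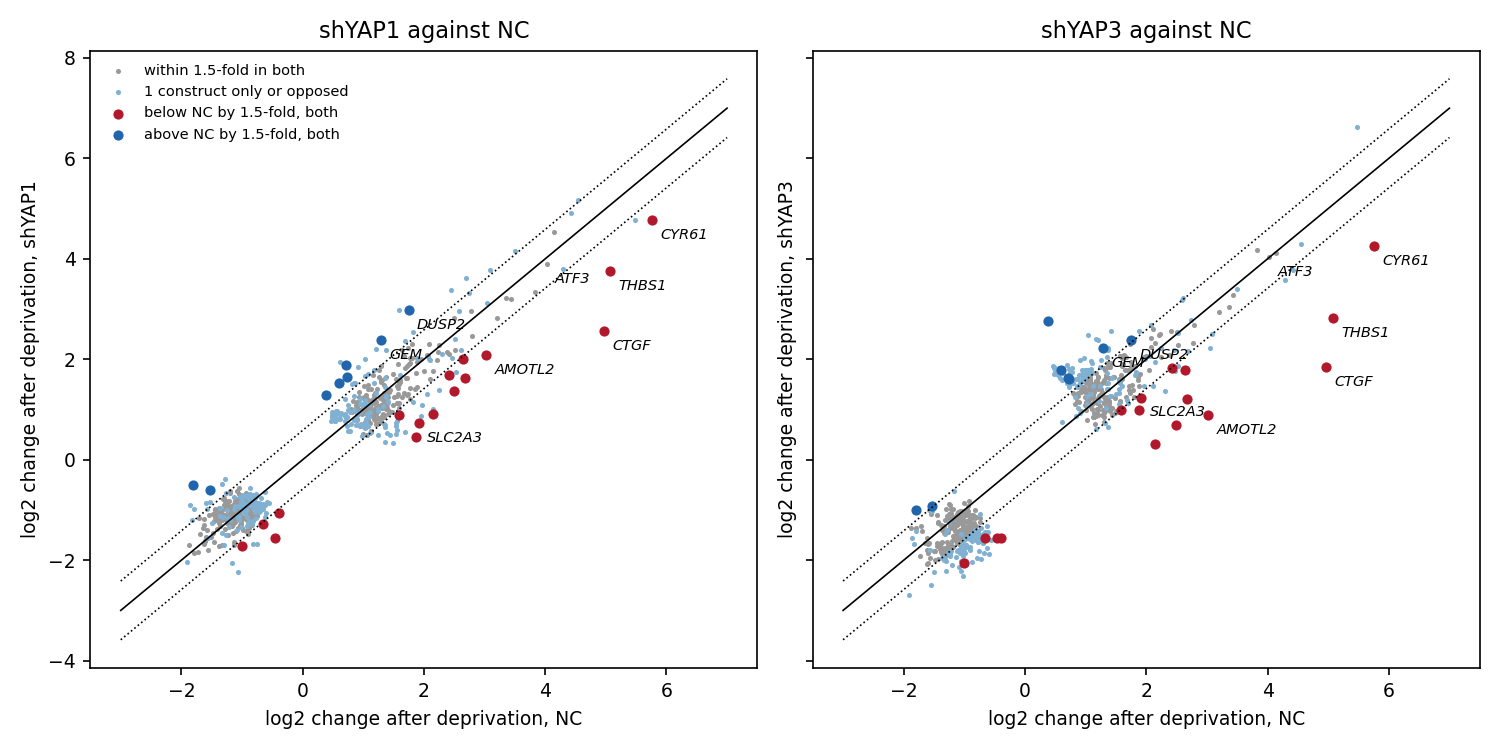
The log2 change after deprivation in shYAP1 (left) and shYAP3 (right) is plotted against that in NC for the 328 induced and 302 repressed genes, 1 point per gene, with equality as a solid line and 1.5-fold either side as dotted lines. The 12 induced genes weaker in both constructs lie below the lower dotted line in both panels, with CTGF, THBS1, CYR61 and AMOTL2 farthest to the right, and ATF3 lies close to equality.

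CTGF, CYR61 and THBS1, the secreted YAP targets that mark this response, were induced in all 3 cell lines and reached lower levels in both shYAP lines. CTGF (ENSG00000118523) stood at 0.968, 0.406 and 0.591 in the control libraries, on 22, 10 and 13 reads, and at 60.5, 7.26 and 4.71 in the deprived ones, on 1137, 125 and 68 reads. The ratio of the deprived to the control value was thus 62.5 for NC, 17.9 for shYAP1 and 7.98 for shYAP3. On the log2(value + 1) scale, which understates the change of so low a gene, the changes were 4.97, 2.55 and 1.84, a difference of −2.77 between shYAP and NC (SE 0.42, limma adjusted p = 1.0). No gene with a lower response in shYAP cells had a lower unadjusted p, and with the construct as a block the adjusted p was the 1.4e-06 given above, but 0.25 in edgeR with the same block. In limma without the block the adjusted p was 0.018 without the shYAP1 and 0.099 without the shYAP3 control library and 0.32 to 1.0 under the other normalizations and filters, and CTGF passed when either deprived shYAP library was left out. As the RNA is from bulk cells, fewer responding cells and less RNA per cell cannot be told apart.

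THBS1 (ENSG00000137801), which encodes the matrix glycoprotein thrombospondin, stood at 5.10, 3.77 and 5.32 in the control libraries and at 204, 63.3 and 43.5 in the deprived ones. The control values overlapped between genotypes, and after deprivation both shYAP libraries lay far below NC. Its log2 changes were 5.07, 3.75 and 2.82, with a difference of −1.79 (SE 0.43, limma adjusted p = 1.0, and 0.079 with the construct as a block). CYR61 (ENSG00000142871) stood at 5.06, 4.87 and 4.41 in the control libraries and at 326, 160 and 102 in the deprived ones, in the same order, so that NC was the highest in both media and by far the highest after deprivation. That ratio was 64.5 for NC, 32.8 for shYAP1 and 23.1 for shYAP3, and the difference of the log2 changes was −1.24 (SE 0.42, limma adjusted p = 1.0). None of these genes lost its response: the lowest change, that of CTGF in shYAP3 cells, was still 7.98-fold.

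AMOTL2 (ENSG00000114019), an angiomotin that binds YAP and keeps it in the cytoplasm, stood at 18.5, 16.2 and 23.6 in the control libraries and at 158, 72.2 and 44.7 in the deprived ones. Its induction was 8.52-fold for NC, 4.45-fold for shYAP1 and 1.90-fold for shYAP3, a log2 difference of −1.53 (SE 0.49, limma adjusted p = 1.0). NUAK2 (ENSG00000163545), a kinase related to AMPK, stood at 1.98, 1.87 and 2.14 in the control libraries and at 10.003, 2.85 and 2.15 in the deprived ones. Of YAP and TEAD targets at least 2-fold higher in NC, NUAK2 alone was under 1.5-fold in both constructs on the log2(value + 1) scale. There it had log2 changes of 1.88, 0.42 and 0.01 (difference −1.67, SE 0.36, limma adjusted p = 1.0). As plain ratios of the deposited values its inductions came to 5.05-fold, 1.52-fold and 1.01-fold, so that of shYAP1 lay just above 1.5-fold. EDN1, the peptide endothelin 1, was low throughout, at 0.088, 0.0811 and 0.364 in the control libraries and at 3.83, 1.05 and 0.693 in the deprived ones, and its NC and shYAP1 control values were at or below the level of 3 reads.

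**Figure D2:**
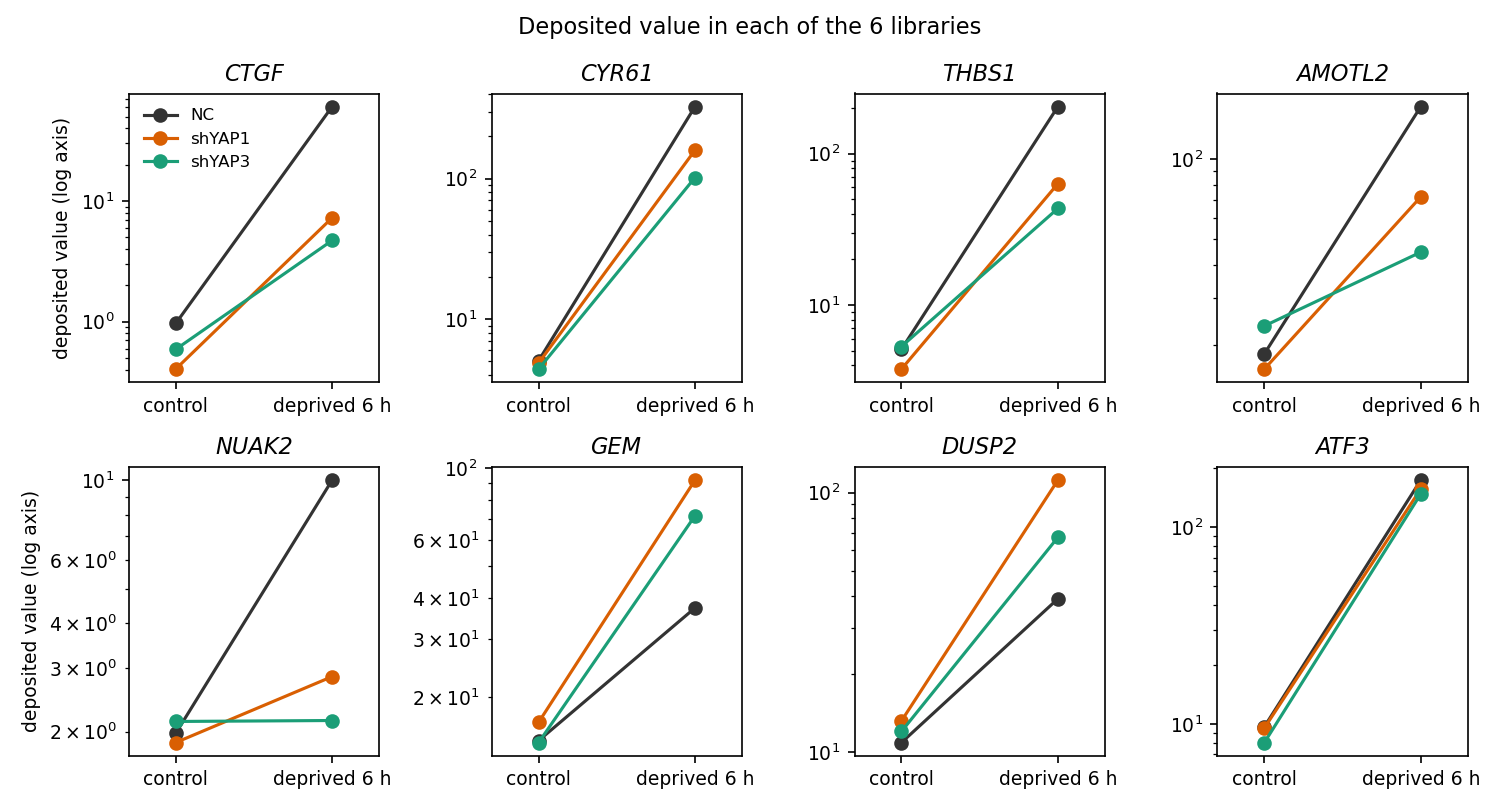
The deposited value of 8 genes is plotted on a log axis in the control libraries and after 6 h without glucose, 1 point per library, with a line joining the 2 libraries of a cell line. CTGF, CYR61, THBS1, AMOTL2 and NUAK2 end below NC in both shYAP lines, GEM and DUSP2 end above NC in both, and the ATF3 lines nearly coincide.

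Across the list of 40 YAP and TEAD targets, 37 were listed and 33 tested. Of these, 0 passed limma in either direction, 13 had a change below NC by at least 1.5-fold in both constructs and 0 had one above, which is 39.4% of the list against 1.15% and 0.881% of all tested genes. The median difference of the list was −0.59, against 0.00 over all tested genes, and at an unadjusted p under 0.05 there were 10 lower and 0 higher. The change was below that of NC in both constructs, by any amount, for 25 of 33 targets and for 28.6% of all tested genes. After deprivation 11 of the 13 stood at least 1.5-fold below NC in both shYAP lines, and in control medium all 13 stood within 1.5-fold of NC in both, on the log2(value + 1) scale, which compresses low genes. On the deposited scale the control values of CTGF (0.968 in NC against 0.406 and 0.591), EDN1 (0.088 against 0.0811 and 0.364) and LATS2 (9.41 against 6.04 and 6.95) lay farther apart. The transcripts of the 13 had a median length of 4521 bases and a median GC content of 47.4%, against 3725 bases and 48.6% over all tested genes. At 2-fold, 4 of 33 targets lay below NC in both constructs and 0 above, against 0.155% and 0.0734% of all tested genes. With trends on length and GC content removed 11 of 33 targets lay below NC in both constructs, against 1.03% of all tested genes. The targets were listed with earlier results of these data known, so the count is no independent evidence of its direction.

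Several of the 13 encode regulators of YAP. LATS2, the kinase that phosphorylates YAP, stood at 9.41, 6.04 and 6.95 in the control libraries and at 26.6, 10.3 and 8.66 in the deprived ones, a log2 difference of −0.92 (SE 0.35). PTPN14, a phosphatase that binds YAP, stood at 47.9, 39.0 and 42.2 in the control libraries and at 54.5, 24.9 and 15.0 in the deprived ones. AJUBA, a LIM protein that binds and inhibits LATS kinases, stood at 33.1, 30.3 and 31.4 and then at 46.8, 19.7 and 24.4. PTPN14 and AJUBA were thus higher after deprivation in NC cells and lower in both shYAP lines, with log2 differences of −1.21 (SE 0.44) and −0.96 (SE 0.33). CRIM1, a transmembrane protein that binds bone morphogenetic proteins, had the same pattern, with log2 changes of 0.42 for NC, −0.34 for shYAP1 and −0.46 for shYAP3. DOCK5, an exchange factor for the GTPase Rac, was lower after deprivation in every line, by log2 changes of −0.17, −0.79 and −1.17. F3, tissue factor, and TGFBR2, a receptor of transforming growth factor beta, had log2 changes of 1.58 and 1.21 in NC, 0.88 and 0.62 in shYAP1, and 0.98 and 0.62 in shYAP3 cells. The limma adjusted p was 1.0 for each of these genes.

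Of the 33 targets 11 responded within 1.5-fold of NC in both constructs, a smaller share than the 73.2% of all tested genes. GADD45A and GADD45B, stress-inducible regulators of growth arrest, had log2 changes of 2.23 and 2.08 in NC, 2.15 and 2.31 in shYAP1, and 2.50 and 2.41 in shYAP3 cells. TAGLN, an actin-binding protein, had changes of 1.72, 1.86 and 1.46, although its control level was lower in shYAP1 (3.65) and shYAP3 (8.59) than in NC cells (13.4), so that its level differed between genotypes and its fold induction by less than 1.5-fold. AXL, a receptor tyrosine kinase, lay below NC by 1.5-fold in shYAP3 alone, with changes of 1.18 for NC, 1.20 for shYAP1 and 0.50 for shYAP3. TEAD1, the DNA-binding partner of YAP, had changes of 0.23, −0.22 and −0.64 (difference −0.66, SE 0.42), and WWTR1, which encodes the YAP paralog TAZ, had changes of 0.51, 0.81 and 0.49 (difference 0.14, SE 0.39), but a difference of −0.021 when scaled to listed reads. ANKRD1, a nuclear ankyrin repeat protein and YAP target, was below the level for testing and stood at 0.22, 0.0406 and 0.136 in the control libraries and at 1.54, 0.116 and 0.901 in the deprived ones.

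**Figure D3:**
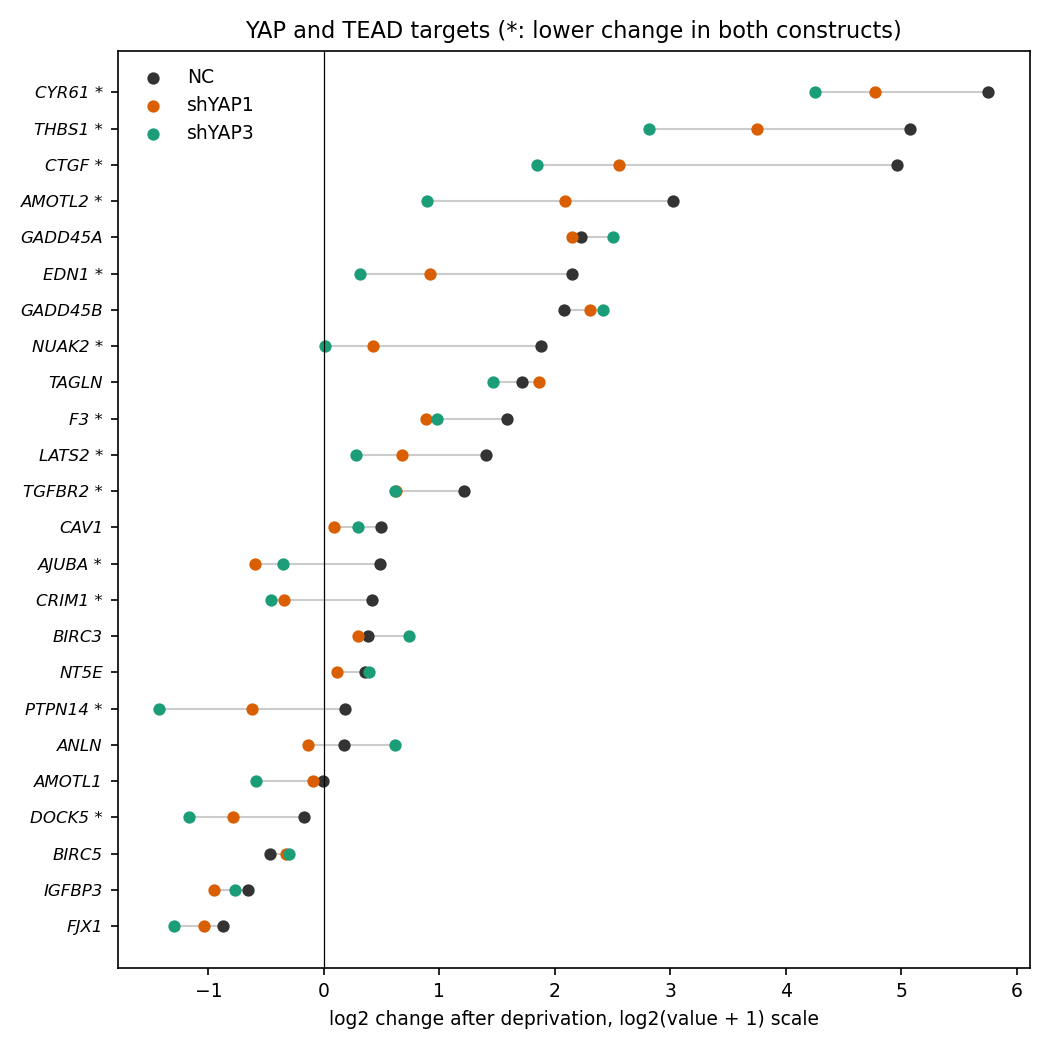
The log2 change after deprivation is plotted in NC, shYAP1 and shYAP3 cells for the 13 YAP and TEAD targets below NC by at least 1.5-fold in both constructs, marked by asterisks, and the 11 within 1.5-fold of NC in both, ordered by the NC change, with 1 point per cell line. In the 13 marked genes both shYAP points lie to the left of the NC point, CTGF farthest, and in genes such as GADD45A and TAGLN the points lie close together.

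The promoters of these targets were read from RefSeq (GRCh38.p14) to show the sequence at which TEAD motifs are found, as the 250 bases before each start. Of the 13 genes 10 were found in the RefSeq table, and CYR61, CRIM1 and DOCK5 were not matched. The TEAD motif GGAATG, searched on both strands, occurred before at least 1 start of 7 of the 10, against 14.29% of 27305 genes, and before a start of 1 of the 12 matched genes among the other 20 tested targets. The AP-1 motif TGANTCA, which reads the same on both strands, occurred in 1 of the 10, F3, against 8.06% of genes, and the CArG box bound by serum response factor in 0 of the 10, against 1.44%. Shown are 4 targets with the motif and a difference of −1.53 or lower, 5′ to 3′ on the strand of the gene, with each TEAD motif (GGAATG, or CATTCC where it lies on the other strand) in capitals: CTGF at chr6:131951373-131951622 (minus strand), THBS1 at chr15:39580829-39581078 (plus strand), NUAK2 at chr1:205321746-205321995 (minus strand) and AMOTL2 at chr3:134374448-134374697 (minus strand, the one of its 2 starts with a motif). Genes with several starts have more sequence searched, and a match is a description of the letters.
CTGF: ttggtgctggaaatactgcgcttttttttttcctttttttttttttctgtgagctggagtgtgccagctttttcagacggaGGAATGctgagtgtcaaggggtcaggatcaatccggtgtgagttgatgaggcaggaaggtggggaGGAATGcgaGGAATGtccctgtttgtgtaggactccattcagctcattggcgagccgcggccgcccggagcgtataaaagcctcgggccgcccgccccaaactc
THBS1: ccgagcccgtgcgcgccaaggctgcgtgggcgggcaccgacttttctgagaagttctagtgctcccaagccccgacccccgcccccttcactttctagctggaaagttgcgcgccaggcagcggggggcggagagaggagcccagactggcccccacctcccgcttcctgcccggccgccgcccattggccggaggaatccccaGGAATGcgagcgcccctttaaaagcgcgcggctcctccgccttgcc
NUAK2: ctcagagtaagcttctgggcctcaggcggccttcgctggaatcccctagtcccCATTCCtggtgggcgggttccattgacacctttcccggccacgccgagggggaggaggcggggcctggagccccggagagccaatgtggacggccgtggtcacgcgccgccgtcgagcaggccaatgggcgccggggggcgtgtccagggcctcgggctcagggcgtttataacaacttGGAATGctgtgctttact
AMOTL2: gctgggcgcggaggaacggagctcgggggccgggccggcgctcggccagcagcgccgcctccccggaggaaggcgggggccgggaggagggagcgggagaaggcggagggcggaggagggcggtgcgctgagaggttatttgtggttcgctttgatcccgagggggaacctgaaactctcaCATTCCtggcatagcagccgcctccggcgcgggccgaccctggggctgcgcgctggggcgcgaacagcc
CTGF holds 3 motifs, which begin 169, 104 and 95 bases before the start, all on the strand of the gene. In THBS1 the motif begins 46 bases before the start, and in NUAK2 the 2 motifs begin 197 and 18 bases before it, the former on the other strand. In AMOTL2 the motif lies on the other strand, 69 bases before the start. EDN1, the fifth such target, was too low for its promoter to be shown.

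The 12 induced genes weaker in both constructs were CTGF, THBS1, EDN1, CYR61, AMOTL2 and F3 of the target list and KRT80, KRTAP2-3, GOLGB1, SLC2A3, MAFF and ETS1. EDN1, KRT80 and KRTAP2-3, with mean values under 5, are named after their values were seen. SLC2A3, a high-affinity glucose transporter, stood at 40.6, 57.4 and 33.3 in the control libraries and at 156, 95.7 and 79.8 in the deprived ones, a log2 difference of −0.93 (SE 0.47, limma adjusted p = 1.0). MAFF, a small MAF transcription factor, stood at 10.2, 12.8 and 11.1 and then at 68.7, 54.2 and 40.9. ETS1, a transcription factor of the ETS family, stood at 9.11, 8.97 and 7.32 and then at 53.05, 31.3 and 28.3. In these 3 genes the NC library was the highest of the deprived libraries, and MAFF and ETS1 had log2 differences of −0.75 (SE 0.36) and −0.66 (SE 0.34). KRT80, an epithelial keratin, stood at 1.63, 1.26 and 1.41 in the control libraries and at 13.8, 4.82 and 2.91 in the deprived ones (log2 difference −1.46, SE 0.43, limma adjusted p = 1.0). KRTAP2-3, a hair keratin-associated protein, stood at 0.748 in NC against 1.66 and 1.59 in the control libraries and at 10.2, 7.26 and 4.99 in the deprived ones, lower in NC before deprivation and higher after it. GOLGB1, the Golgi matrix protein giantin, stood at 34.6 in NC against 92.4 and 90.3 in the control libraries and at 130, 126 and 180 in the deprived ones, so that its difference of −1.16 (SE 0.37) came with a lower NC control value. The 2 genes just inside the 1.5-fold rule, ETS1 and F3, had a smaller difference of −0.60 each, and the 2 just outside it, C10orf118 and FICD, had −0.56 and −0.50.

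A smaller group was induced more in both constructs. GEM, a small GTP-binding protein, stood at 14.7, 16.7 and 14.5 in the control libraries and at 37.4, 91.7 and 71.4 in the deprived ones, with log2 changes of 1.29, 2.39 and 2.22 (difference 1.02, SE 0.35, limma adjusted p = 1.0). DUSP2, a nuclear phosphatase of MAP kinases, stood at 10.9, 13.2 and 12.0 and then at 39.0, 112 and 67.2 (difference 0.94, SE 0.45, limma adjusted p = 1.0). For both genes the control values lay close together and both deprived shYAP values lay above NC. ISG15, a ubiquitin-like protein induced by interferon, stood at 60.5, 67.3 and 70.5 and then at 101, 214 and 216 (difference 0.90, SE 0.28, limma adjusted p = 1.0), but the difference was 0.45 with trends on length and GC content removed. OASL, also an interferon-stimulated gene, stood at 1.67, 2.11 and 2.68 and then at 3.03, 8.02 and 11.8. The other 2 of the 6 genes, HIST1H1E, a linker histone, and KM-PA-2, stood at 1.44 and 6.65 in NC after deprivation, at 3.14 and 18.6 in shYAP1 and at 2.77 and 28.8 in shYAP3 cells. OASL, HIST1H1E and KM-PA-2 had log2 differences of 1.07, 1.04 and 1.65. The next genes by the same measure, none of them 1.5-fold above NC in both constructs, included ANKRD37, a hypoxia-inducible gene (log2 changes 0.69, 1.20 and 1.89), JUNB, an AP-1 subunit (1.63, 2.19 and 2.09), and PLAUR, the urokinase receptor (0.82, 1.51 and 1.25).

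The stress programs of glucose deprivation had shares of genes within 1.5-fold of NC near the 73.2% of all tested genes, and with 1.15% of all genes below and 0.881% above NC in both constructs, a count of 0 in a list of this size is near the background. The integrated stress response acts through the transcription factor ATF4. Of its 41 tested targets 33 lay within 1.5-fold of NC in both constructs and 0 lay below or above it in both, with median log2 changes of 1.07 for NC, 0.74 for shYAP1 and 0.82 for shYAP3. Of 35 chaperones and other genes of the unfolded protein response 25 lay within 1.5-fold in both and 0 below or above, with medians of 1.15, 0.92 and 1.17. ATF3, a stress-induced transcription factor, stood at 9.68, 9.53 and 8.04 in the control libraries and at 173, 156 and 147 in the deprived ones, with log2 changes of 4.03, 3.90 and 4.04 (difference −0.06, SE 0.31). HSPA5, the reticulum chaperone BiP, stood at 788, 753 and 659 and then at 5464, 4158 and 4234, with log2 changes of 2.79, 2.46 and 2.68. CHAC1, which degrades glutathione, had changes of 3.83, 3.35 and 4.18, HERPUD1, of reticulum-associated degradation, 3.44, 3.19 and 3.28, and SESN2, a restraint on mTORC1, 3.21, 2.82 and 2.94. PPP1R15A, which directs the dephosphorylation of eIF2 alpha, had changes of 2.77, 2.96 and 2.32. DDIT3, which encodes CHOP, differed between the constructs, with log2 changes of 5.48 for NC, 4.77 for shYAP1 and 6.62 for shYAP3. ASNS, asparagine synthetase, had changes of 2.10, 1.60 and 2.60, and ATF4 itself 1.09, 1.08 and 1.38. The difference between shYAP and NC in these 9 genes was at most 0.33 in size (SESN2), with standard errors of 0.31 (ATF3) to 0.74 (DDIT3), which does not show that they responded alike.

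Immediate early genes, which include CTGF and CYR61 as members, had median log2 changes of 1.70 for NC, 2.01 for shYAP1 and 1.44 for shYAP3, and 13 of 30 lay within 1.5-fold of NC in both constructs. The 3 that lay below NC in both were CTGF, CYR61 and MAFF, and 0 lay above. Over all tested genes 73.2% lay within 1.5-fold in both, 1.15% below and 0.881% above. JUN, an AP-1 subunit, stood at 18.3, 17.4 and 15.2 in the control libraries and at 339, 426 and 279 in the deprived ones, with a difference of 0.18 (SE 0.41). FOS, its partner, had changes of 4.54, 5.18 and 4.30, and EGR1, a zinc finger transcription factor, 3.50, 4.16 and 3.41, so that the changes of shYAP1 lay above NC and those of shYAP3 below it. Among 29 genes of MAP kinase feedback and EGF ligands 24 lay within 1.5-fold in both, 0 below and 1, DUSP2, above. DUSP5, a phosphatase of nuclear ERK, had changes of 3.36, 3.23 and 3.04.

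**Figure D4:**
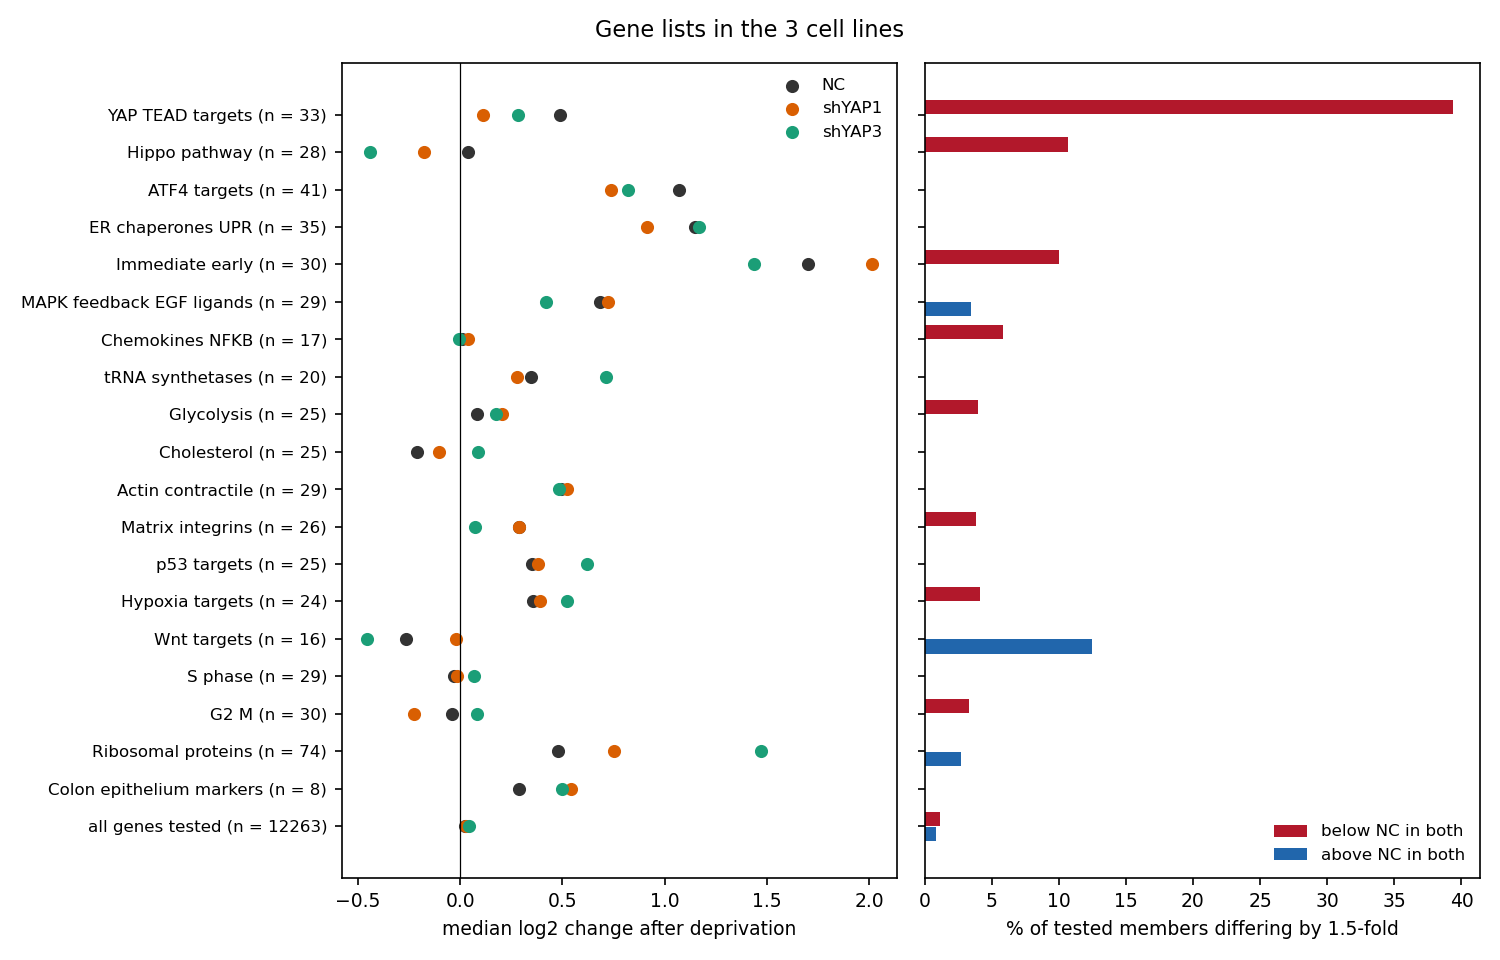
Left, the median log2 change after deprivation of each gene list with at least 5 tested members in NC, shYAP1 and shYAP3 cells, and right, the percentage of tested members whose change was below (red) or above (blue) that of NC by at least 1.5-fold in both constructs, with all 12263 tested genes in the lowest row. The YAP and TEAD targets reach 39.4% below NC, and 0 ATF4 targets and 0 reticulum chaperones lie below or above.

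In both constructs 4 of 302 repressed genes (1.32%) lay below NC and 2 (0.662%) above it, shares near the 1.15% and 0.881% over all genes. Taking shYAP3 by itself, 90 of the 302 lay below NC and 2 above, against 1156 and 1590 of all 12263 tested genes. Taking shYAP1 by itself, 8 lay below and 11 above, against 450 and 351 of all. The mean that chose the 302 leans toward large shYAP3 changes. Scaled to listed reads, 23 repressed genes lay below NC in both constructs, where 1.99% of all tested genes did. With a pseudocount of 0.1 the count was 41, where 2.01% of all did. Repressed genes were chosen anew in each setting, so these counts are not out of the 302. The 4 with a stronger decrease were AMIGO3, a leucine-rich repeat membrane protein, BEND3, a transcriptional repressor, ZFHX4, a homeobox zinc finger protein, and PHLPP2, a phosphatase of AKT. AMIGO3 stood at 9.15, 6.57 and 9.54 in the control libraries and at 6.39, 1.57 and 2.56 in the deprived ones, a log2 difference of −1.10 (SE 0.45, limma adjusted p = 1.0). BEND3 stood at 23.1, 19.8 and 19.7 and then at 11.1, 5.34 and 3.95 (difference −0.89, SE 0.36, limma adjusted p = 1.0). ZFHX4 and PHLPP2 had differences of −0.92 (SE 0.41) and −0.76 (SE 0.36). With trends on length and GC content removed the differences of BEND3, ZFHX4 and PHLPP2 were −0.70, −0.63 and −0.56. The 2 with a weaker decrease were ST3GAL2, a sialyltransferase, at 13.3, 9.29 and 9.63 and then 3.94, 5.81 and 4.64, and LYPD3, a membrane protein anchored by a glycolipid, at 4.53, 4.71 and 4.23 and then 0.585, 3.02 and 1.59. LYPD3 is named after its values were seen. The largest mean decreases among repressed genes within 1.5-fold of NC in both constructs, with a mean value of at least 5, were those of MAT2A, which makes S-adenosylmethionine, FZD4, a Wnt receptor, NAT8L, which makes N-acetylaspartate, GPR157, an orphan receptor, and PCF11, a factor of mRNA 3′ end cleavage. MAT2A stood at 403, 398 and 344 and then at 116, 110 and 134, and PCF11 at 60.0, 64.3 and 66.8 and then at 19.0, 20.3 and 17.7.

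Taking the NC response alone gives a view from 1 pair of libraries. Of 352 genes at least 2-fold higher in NC 152 (43.2%) were at least 2-fold higher in both constructs and 13 (3.69%) were under 1.5-fold in both. Of 250 genes at least 2-fold lower in NC 111 (44.4%) were at least 2-fold lower in both and 11 (4.40%) were under 1.5-fold in both. In the other direction, 152 of 183 genes at least 2-fold higher in both constructs were so in NC as well and 5 were under 1.5-fold there. Choosing genes by the change on one side favours those whose change was measured as large on that side, so the counts are a description.

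On the log2(value + 1) scale these 13 genes of NC were under 1.5-fold in both constructs. They were NUAK2, TNFAIP3, an inhibitor of NF-kB signalling, and 11 others. TNFAIP3 stood at 2.46, 3.25 and 2.50 in the control libraries and at 6.28, 3.37 and 2.63 in the deprived ones (log2 difference −1.02, SE 0.38, limma adjusted p = 1.0). All of the other 11 stood higher in both shYAP control libraries than in the NC control library. Their log2 differences in control medium were 0.75 (N4BP2, shYAP1) to 1.17 (BDP1, shYAP1), so their lower response came with a low NC control value. The 11 included DST, a cytoskeletal linker, TPR, of the nuclear pore basket, and BRCA2, of DNA repair, chosen here after their values were seen. DST stood at 181 in NC against 396 and 370 in the control libraries, and at 423, 343 and 291 in the deprived ones. BRCA2 stood at 9.46 against 20.6 and 22.4, and then at 26.02, 20.3 and 24.95, and TPR at 134 against 271 and 256, and then at 319, 309 and 331. In TPR the deprived libraries lay close together and the difference of response came with a low value of the NC control library, as in GOLGB1 and unlike CTGF or THBS1. Of the 141 tested genes below NC in both constructs 41 stood at least 1.5-fold above NC in both shYAP control libraries, and 33 stood at least 1.5-fold below NC in both deprived ones. The 141 genes had a median transcript length of 6939 bases and a GC content of 41.3%, and the 156 genes above NC in both shYAP control libraries had 6549 bases and 37.4%. With trends on length and GC content removed 77 of the 141 still lay below NC in both constructs. The part of length and base composition in these differences was not tested further.

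**Figure D5:**
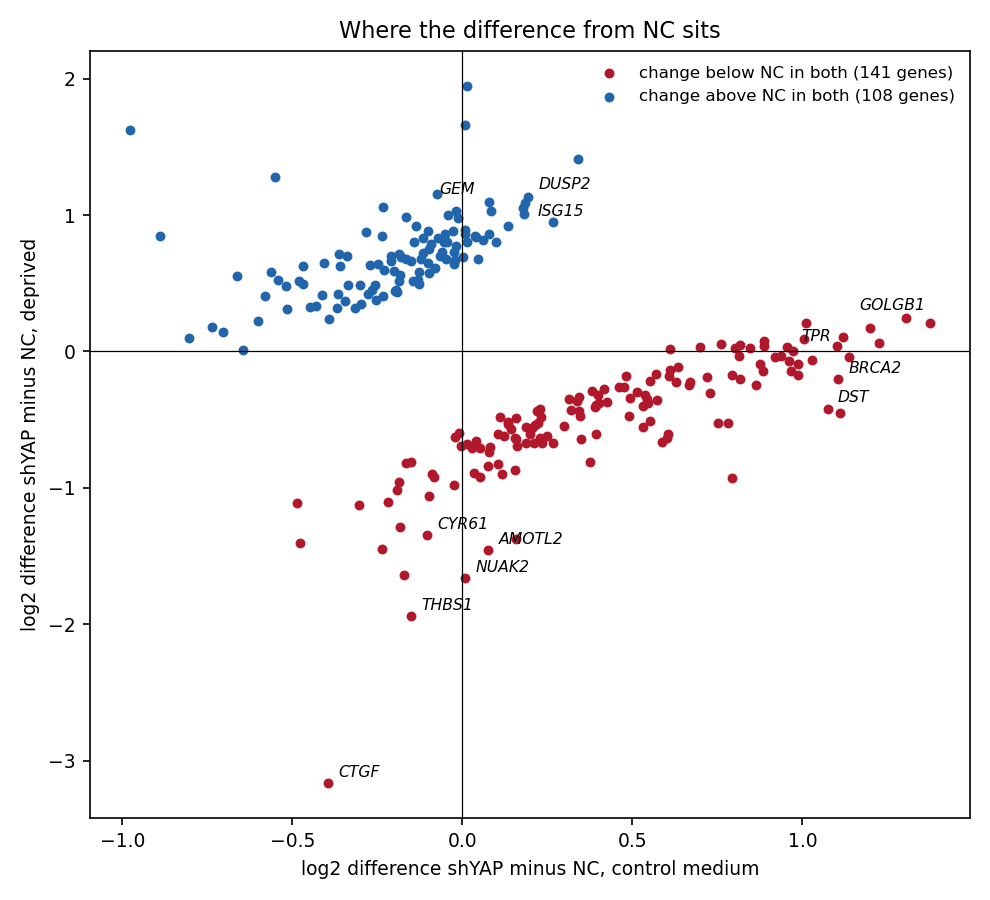
The mean log2 difference between shYAP and NC cells in control medium (horizontal axis) and after deprivation (vertical axis) is plotted for the 141 genes whose change was below NC in both constructs (red) and the 108 whose change was above (blue), 1 point per gene. CTGF, THBS1, CYR61, AMOTL2 and NUAK2 lie low and near the vertical line, and DST, BRCA2, TPR and GOLGB1 lie to the right, with higher shYAP values in control medium.

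In most other lists 0 or 1 gene differed in both constructs, near the 1.15% below and 0.881% above NC over all tested genes. Of 28 Hippo pathway genes 3, AMOTL2, PTPN14 and LATS2, all of them also targets, lay below NC and 0 above, with a median difference of −0.29. Of 16 Wnt targets 0 lay below and 2 above, SP5, a transcription factor (1.89, 1.74 and 1.27 in the control libraries and 0.106, 1.16 and 0.416 in the deprived ones), and DKK4, a secreted Wnt antagonist (1.19, 1.14 and 1.09, and then 0.798, 2.61 and 1.94), both low. Of 26 matrix and integrin genes 1, THBS1, lay below, of 25 glycolysis genes 1, SLC2A3, and of 17 chemokine and NF-kB genes 1, TNFAIP3, with 0 above in each of these lists. SLC2A3 was also the one hypoxia-inducible gene of 24 below NC. Of 30 genes of G2 and mitosis 1, CENPF, a kinetochore protein, lay below, at 201 in NC against 364 and 426 in the control libraries and at 362, 245 and 441 in the deprived ones. Of 29 actin and contractile genes, 25 p53 targets, 25 cholesterol genes, 20 tRNA synthetases and 29 genes of S phase 0 lay below or above NC in both constructs.

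Ribosomal protein genes had higher changes in shYAP1 than in NC cells and higher ones still in shYAP3, with none called by limma. The difference from NC was above 0 in each of the 74, from 0.25 to 0.92. They had median log2 changes of 0.48 for NC, 0.75 for shYAP1 and 1.47 for shYAP3, and 2 of them, RPS9 and RPS2, lay above NC by 1.5-fold in both constructs. RPS2, a protein of the small subunit, stood at 2708, 2397 and 2367 in the control libraries and at 3645, 4884 and 5943 in the deprived ones. With trends on length and GC content removed the median difference of the list was 0.37, against 0.60. Quantile normalization gave 0.25, and the median was 0.89 without the shYAP1 and 0.35 without the shYAP3 deprived library. The length used was that of the longest transcript, 7062 bases for RPS29, whose difference was 0.92 before the removal and 1.06 after it. How much of the difference goes with length is thus uncertain. Ribosomal protein genes have processed pseudogenes, and reads shared with them were not tested, so single values are uncertain. Among the markers of other cell types CORO1A, of leukocytes, lay above NC in both constructs, at 10.03, 7.14 and 11.2 in the control libraries and at 10.4, 12.7 and 18.3 in the deprived ones, and 0 tested colon epithelial markers lay below or above. The summed value of the 6 listed leukocyte markers was 15.5 to 18.6 in the NC libraries, 16.5 in both shYAP control libraries and 27.9 to 28.9 in the deprived shYAP libraries, and its part in the results was not tested.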

How the data were processed

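Messenger RNA of 6 HCT116 libraries was isolated with oligo-dT beads, fragmented and ligated to Illumina adapters, per the labels' protocols. The submitters' processing notes list hg19, BWA and Bowtie2 without roles, and the read counter, gene annotation and strand setting are not given in the sources used here. The values the authors deposited are a signal per gene, normalized by a scaling that no label describes. Reads were recovered for edgeR and DESeq2, since 100% of values in every library came within 0.01 read of a whole number of reads.

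Computed here were log2(value + 1), limma 3.58.1 (R 4.3.3) with its trended prior and 1 mean per genotype and medium, Benjamini-Hochberg adjustment over 12263 genes at 0.05, edgeR 4.0.16 and DESeq2 1.42.0. Classes at 1.5-fold and the 22 gene lists carry no test. Length and base composition were read from the longest GENCODE v29 transcript of a gene (98.0% of genes matched), another build than hg19. Scripts were tested on simulated data. Alternatives were other normalizations, filters and pseudocounts, no trend, length and GC trends removed, the block, and each shYAP library left out. The number of residual degrees of freedom was 2, and 1 with the construct as a block. Pairing comes from the construct: across genes, shYAP1 minus shYAP3 correlated between media at r = 0.10.

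Members, lists and named genes were chosen with earlier results of these data known. Named were 15 genes for the question, the largest differences and the largest shared changes among induced and repressed genes whose mean over libraries reached 5, and the 2 largest of each list in each direction. Some are given only as part of a count. Symbols are those of the deposited table, and 1 target is not reported here.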

Additional observations from a re-analysis of the deposited data

Results flagged for a closer look

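The log2 changes of PTPN14 and DKK4 had one sign in NC and the other in both shYAP lines. That opposition was not tested apart from the limma difference. PTPN14 had log2 changes of 0.18 for NC, −0.63 for shYAP1 and −1.43 for shYAP3, a difference of −1.21 (limma adjusted p = 1.0). DKK4 had changes of −0.28, 0.76 and 0.49, a difference of 0.91 (limma adjusted p = 1.0), at values of at most 2.61. With trends on length and GC content removed the difference was −0.92 for PTPN14 and 0.51 for DKK4. Over all tested genes 1287 of 12263 had a sign in NC opposite to that in both constructs, and in 3 of them, RSC1A1, AL353354.2 and RP11-542C16.2, each change was at least 1.5-fold.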

How the results depend on the processing

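The count of genes called for a difference of response was 0 with quantile normalization, scaling to listed reads, TMM factors, removal of length and GC trends, other filters, a pseudocount of 0.1, no trend and edgeR. It was 4 with the construct as a block in limma, 2 with that block in edgeR (GCOM1 and RP11-542C16.2, a fit chosen after seeing the data) and 1 in DESeq2. Leaving out 1 shYAP library gave 1 to 2735 calls, namely 4 without the shYAP1 and 1 without the shYAP3 control library, and 2735 without the shYAP1 and 269 without the shYAP3 deprived library, where the spread comes from the control libraries alone and a single deprived library stands for shYAP. Without an NC library the difference cannot be computed. Apart from CTGF, RP11-542C16.2, GCOM1 and AL353354.2 the block in limma changed no call.

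Induced genes weaker in both constructs numbered 9 to 32 when a shYAP library was left out (27 and 32 without the shYAP1 and shYAP3 deprived library), 5 at 2-fold and 30 when chosen by NC. In the same order, induced genes stronger in both numbered 5 to 167 (167 and 25 without the deprived libraries, 16 without the shYAP1 control library), 0 and 2, and 13 with a pseudocount of 0.1. Repressed genes weaker in both numbered 1 to 8 (4 and 8 without the deprived libraries, 1 without the shYAP3 control library), 0 and 13, and 13 with a pseudocount of 0.1 and 1 with a value of at least 5. Repressed genes stronger in both numbered 5 to 132 (132 without the shYAP1 deprived library, 10 without the shYAP3 control library), 1 and 1, and 41 with a pseudocount of 0.1, 23 scaled to listed reads and 8 with length and GC trends removed. Without a deprived library the rule rests on 1 construct and is met more easily, and the other causes were not tested. The YAP and TEAD targets below NC in both constructs numbered 4 at 2-fold. They numbered 11 to 13 under the other normalizations, filters and pseudocount, with trends removed and without a control library. In those settings 0.976% to 2.01% of all tested genes met the rule. Without the shYAP1 deprived library 22 targets and 9.43% of all genes met it, against 13 and 3.67% without the shYAP3 deprived library.

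The difference changed sign for WWTR1 (−0.021 scaled to listed reads, and −0.13 to 0.41 with 1 shYAP library left out), ATF4 (−0.021 scaled to listed reads, −0.026 with trends removed), DDIT3 (−0.13 with trends removed, and −0.49 to 0.93 with 1 left out), ASNS (0.062 in edgeR, 0.041 in DESeq2, and −0.45 to 0.45 with 1 left out), FOS (−0.41 to 0.80 with 1 left out) and EGR1 (−0.37 to 0.93 with 1 left out). The ends of these ranges come from leaving out a deprived library. None of these was called in the limma test as reported. Scaling to listed reads moved the median difference of all genes to −0.14. With 1 NC library per medium, values of genes near 3 reads are the least certain.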

Other observations

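The constructs differed in how far they departed from NC. In shYAP1 cells 450 genes had a change at least 1.5-fold below and 351 one at least 1.5-fold above that of NC, and in shYAP3 cells 1156 and 1590 did. Among the 328 induced genes 36 were weaker and 26 stronger in shYAP1, and 23 weaker and 82 stronger in shYAP3 cells. The mean over the 3 lines that chose these genes leans toward large shYAP3 changes.

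RP11-542C16.2 and GCOM1, called with the construct as a block, are low. RP11-542C16.2 stood at 0.968 in the NC control library, at 0 in both shYAP control libraries and the NC deprived library, and at 2.38 and 1.80 in the deprived shYAP1 and shYAP3 libraries. GCOM1 stood at 3.74, 3.49 and 4.09 in the control libraries and at 0.479, 4.99 and 4.44 in the deprived ones. GCOM1 is a locus whose transcripts overlap those of neighbouring genes, and how reads were assigned there is not given in the sources used here. SPHK1, a sphingosine kinase, was lower after deprivation in NC, at 4.31 and then 1.17, and less so in shYAP1 (3.33 and 2.50) and shYAP3 cells (3.86 and 2.56).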
